A study of Mus musculus with 8 samples.

Results

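Lipolysis releases the fatty acids of a fat cell from its stored triglyceride, and the transcripts described here are those of its 3 hydrolases and of the proteins that switch them. The 8 genes are Pnpla2, Lipe, Mgll, Abhd5, G0s2, Pnpla3, Prkaca and Prkar2b. They were chosen by name, and all 8 have a row among the 18022 genes of the deposited count table. RNA was sequenced from subcutaneous adipose tissue of 8 mice of the strain C57BL/6J, labelled as back-crossed 4 times. The 4 control mice carried floxed alleles, Pkd1(flox/flox), and the other 4 were labelled with the genotype Pkd1adipo delta/delta, an adipocyte deletion. Here Pkd1 stands for protein kinase D1, a kinase whose gene symbol is Prkd1. The sources used here do not state age, sex or the driver of the deletion. The control libraries are called WT1 to WT4 below and the others KO1 to KO4, by label and replicate number. Nothing beyond the mouse identifiers describes litters or dates, so p-values measure only the spread between these mice.

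Triglyceride hydrolysis runs through 3 steps. Adipose triglyceride lipase, encoded by Pnpla2, removes the first fatty acid, hormone-sensitive lipase (Lipe) acts on the diglyceride, and monoglyceride lipase (Mgll) releases the last. In the resting cell the coactivator Abhd5 is held on the droplet by perilipin. Catecholamines raise cAMP, which frees the catalytic subunit of protein kinase A (Prkaca) from its regulatory subunit, in fat mainly Prkar2b. Phosphorylation of perilipin and hormone-sensitive lipase then opens the droplet, while G0s2 binds and inhibits adipose triglyceride lipase. Pnpla3 is a close relative of Pnpla2 that binds Abhd5 and whose transcript is known to rise with feeding.

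The promoters of the 2 patatin relatives are shown because Pnpla2 and Pnpla3 were the most variable of the 8 genes between mice, as described further on. They come from RefSeq (GRCm38.p6), each covering the 250 bases before the annotated start, and both genes lie on the plus strand. The first is chr7:141454938-141455187 and the second chr15:84167566-84167815. Capitals mark the GC box GGGCGG on either strand, and in Pnpla3 also the full cAMP response element TGACGTCA.
Pnpla2: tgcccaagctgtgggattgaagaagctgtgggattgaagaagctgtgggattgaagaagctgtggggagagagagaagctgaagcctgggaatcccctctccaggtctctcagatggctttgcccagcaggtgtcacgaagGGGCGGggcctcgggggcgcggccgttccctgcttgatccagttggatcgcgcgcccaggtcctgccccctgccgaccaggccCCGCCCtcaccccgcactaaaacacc
Pnpla3: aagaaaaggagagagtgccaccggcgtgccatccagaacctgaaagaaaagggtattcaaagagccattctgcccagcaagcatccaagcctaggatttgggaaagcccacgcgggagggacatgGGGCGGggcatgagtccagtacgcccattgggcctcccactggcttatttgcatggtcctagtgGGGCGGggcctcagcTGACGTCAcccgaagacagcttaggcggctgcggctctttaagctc
The Pnpla3 element lies at bases -46 to -39, counted back from the start. Each promoter holds 2 GC boxes, a motif found in 32.7% of the 32851 windows of this length in the table, whereas the full cAMP response element is in 1.55% of them. These motifs were picked from several searched in the promoters of all 8 genes. Every one of the 8 had a GC box, and only Pnpla3 had the full cAMP response element. FOXO elements (GTAAACA) or E-boxes (CACGTG) were found in Mgll, Lipe, Prkaca and Prkar2b. These matches describe letters and not binding.

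Libraries held between 2617755 and 2873457 reads, and Prkd1 itself had 71 to 108 reads in each, with a log2 fold change of 0.06 ± 0.15 (SE) between labels. The counts thus did not check the deletion. Which exons were deleted is not stated in the labels, and the reads are summed over the gene. The 10 adipocyte markers, among them Adipoq, Plin1 and Fabp4, were all present, with summed levels between 21093 and 26044 CPM (counts-per-million reads of a library, scaled by TMM). Other tissues were present unevenly. The 23 skeletal muscle markers summed to 3939, 2418 and 4237 CPM in KO1, KO2 and KO4, and to between 175 and 701 CPM in the other 5 libraries. Taken singly, all 23 were higher under the label KO. An unadjusted p under 0.05 in edgeR's quasi-likelihood test was reached by 22, against 4.48% of all genes tested. For 5 of them the labels did not overlap, against 2.93% of all genes tested. Muscle RNA and label thus cannot be fully told apart in these libraries. The 12 liver markers with a row summed to 2007 CPM in WT1 and 1658 in WT4, against at most 695 CPM elsewhere. All 12 had a negative log2 fold change, 0 of them with an unadjusted p under 0.05. The 5 small intestine markers with a row summed to 522 CPM in WT2, most of it Apoa4, and to between 11.3 and 50.3 CPM in the other 7. Sums of the 10 lymphocyte markers, mostly Ighm, did not overlap between labels. They were 72.4 to 137 CPM in controls and 48.6 to 69.0 CPM in libraries labelled KO. Only 1 of the 10, Ighm, had enough reads to be tested. Its values did not overlap either, as was so for 2.93% of all genes tested. In such bulk samples, fewer cells of a type and less RNA per cell cannot be told apart.

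All 8 genes were expressed well above the detection limit, and the 3 hydrolases were among the most abundant transcripts of the tissue. By mean CPM, Lipe ranked 56, Pnpla2 66 and Mgll 68 of the 18022 genes. Together the 8 genes took between 0.476% (WT1) and 0.653% (KO3) of the reads of a library. Transcripts of different genes were compared per kilobase of merged exon (GENCODE M21 lengths). On that scale Pnpla2 was highest at 437 ± 131 CPM per kb (SD over 8 libraries), above Pnpla3 in 7 of 8 libraries with overlapping ranges. Pnpla3, Mgll, Lipe and G0s2 followed at 272 ± 93.5, 256 ± 29.8, 251 ± 29.8 and 248.98 ± 48 CPM per kb. These 4 did not differ beyond their spread, since each exceeded its next neighbour in only 4 or 5 of 8 libraries until G0s2, which lay above Prkar2b in all 8. Prkar2b stood at 160 ± 15.5 and Prkaca at 62.7 ± 3.33 CPM per kb. Abhd5 was lowest at 18.8 ± 1.86 CPM per kb, below every value of the other 7 genes. With the longest annotated transcript as the length, Abhd5 stayed last at 35.4 CPM per kb and Lipe moved from place 4 to place 2 at 398 CPM per kb. The annotation used for counting is not named in the sources used here, so the middle of this order rests on the lengths chosen.

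**Figure D1:**
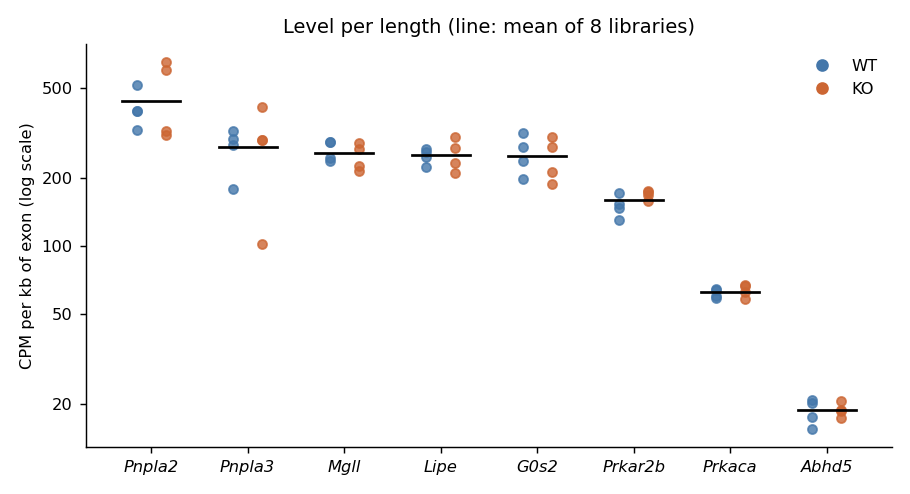
Level of each gene per kilobase of merged exon (y axis, CPM per kb, log scale) in the 4 WT and 4 KO libraries, one point per library, with a line at the mean of all 8. Pnpla2 is highest at 437 CPM per kb, Abhd5 lowest at 18.8, and Pnpla3, Mgll, Lipe and G0s2 lie close together between them, with Pnpla3 at 272.

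The comparison of labels addresses whether loss of protein kinase D1 from adipocytes alters the lipolysis transcripts of subcutaneous fat. None of the 8 genes passed the test of the labels. Their log2 fold changes lay between -0.09 (Mgll) and 0.21 (Pnpla2), 6 positive and 2 negative, with a median of 0.03, against a median of 0.00 over all genes tested. In edgeR's quasi-likelihood test 0 of the 8 passed an adjusted p of 0.05, where 0 of 14556 genes tested passed (0%), and every adjusted p of the 8 was 0.998. An unadjusted p under 0.05 was likewise reached by 0 of the 8, against 4.48% of all genes. The values of the labels overlapped for all 8, and 2.93% of all genes tested did not overlap. DESeq2, edgeR's likelihood ratio test, an exact test with 1 common dispersion and limma-voom also called 0 of the 8, where they called 0.247%, 0.398%, 1.54% and 0% of the genes tested. In the authors' deposited table, which lists 2.42% of its genes at an adjusted p under 0.05, all 8 had an adjusted p of 1.

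The first enzyme, Pnpla2 (ENSMUSG00000025509), was measured at 977, 1554, 1184 and 1189 CPM in WT1 to WT4 and at 1952, 975, 1799 and 937 CPM in KO1 to KO4. The libraries labelled KO thus held both the 2 highest and the 2 lowest values, with all controls between them and WT1 level with KO2. The means were 1226 ± 240 and 1416 ± 535 CPM (SD, n = 4 each). The log2 fold change was 0.21 ± 0.25 (SE), with a 95% interval from -0.34 to 0.75, which leaves room for a fold between 0.792 and 1.68 (two-sided exact permutation p = 0.771, where this design can go no lower than 0.0286). Without KO1 the value was 0.01, and without KO4 it was 0.36. It was 0.53 with the skeletal muscle markers as a covariate and -0.080 with the liver markers.

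Lipe (ENSMUSG00000003123), the hydrolase of the second step, stood at 1314, 1583, 1449 and 1528 CPM in WT1 to WT4. In KO1 to KO4 it stood at 1776, 1365, 1584 and 1230 CPM, again with the highest and the lowest value under the label KO. For Lipe the log2 fold change was 0.02 ± 0.15 (SE), with a 95% interval from -0.30 to 0.34. Its annotated exons share 15.6% of their bases with 4732471J01Rik on the opposite strand, and the library kit did not mark strand, so part of its reads cannot be assigned to a strand. 4732471J01Rik itself ranged from 162 to 226 CPM. Other members shared exon bases as well, each with a gene that has no row in the counts. The shares were 15.95% for Abhd5 (A730085K08Rik, opposite strand), 6.78% for Pnpla3 (Gm49513, same strand) and 3.29% for Mgll (Gm26588, opposite strand).

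Mgll (ENSMUSG00000033174), which completes the hydrolysis, varied less. It was measured at 1201, 1458, 1465 and 1237 CPM in WT1 to WT4 and at 1149, 1082, 1442 and 1360 CPM in KO1 to KO4. The values of the labels were interleaved, with a log2 fold change of -0.09 ± 0.15 (SE) and a 95% interval from -0.41 to 0.23. The ratio of Mgll to Lipe ran from 0.647 in KO1 to 1.11 in KO4, with the other 6 libraries between them.

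The coactivator Abhd5 (ENSMUSG00000032540) had the fewest reads of the 8, between 255 and 349 per library. Its levels were 92.9, 124, 121 and 105 CPM in WT1 to WT4 and 103, 112, 112 and 124 CPM in KO1 to KO4. The estimate for KO against WT was a log2 fold change of 0.02 ± 0.12 (SE), and the 95% interval ran from -0.25 to 0.29. The lowest library was WT1, which was also the lowest control for Pnpla2, Lipe, Mgll, G0s2 and Pnpla3.

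G0s2 (ENSMUSG00000009633), the inhibitor of adipose triglyceride lipase, was at 172, 273, 207 and 237 CPM in WT1 to WT4. It was at 184, 163, 237 and 263 CPM in KO1 to KO4, which overlapped the controls fully but for KO2. Its log2 fold change was -0.07 ± 0.18 (SE), with a 95% interval from -0.45 to 0.31.

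Pnpla3 (ENSMUSG00000041653) was the most variable of the 8. It had 275, 433, 498 and 460 CPM in WT1 to WT4, and 157, 453, 455 and 636 CPM in KO1 to KO4. The lowest value of all, KO1, and the highest, KO4, differed 4.05-fold and carried the same label. Between labels, Pnpla3 had a log2 fold change of 0.03 ± 0.39 (SE), and its 95% interval from -0.87 to 0.92 includes folds from 0.549 to 1.9. It was 0.30 without KO1 and -0.23 without KO4.

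Prkaca (ENSMUSG00000005469), the catalytic subunit of the kinase, was the most even. It lay at 149, 147, 161 and 159 CPM in WT1 to WT4 and at 156, 145, 167 and 165 CPM in KO1 to KO4. Its log2 fold change was 0.04 ± 0.11 (SE), with a 95% interval from -0.20 to 0.27. A processed pseudogene, Prkaca-ps1, held 41 to 66 reads per library and may take some of its reads, by an amount that was not measured.

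Prkar2b (ENSMUSG00000002997), the regulatory subunit, came nearest to a difference. Its levels were 560, 539, 627 and 477 CPM in WT1 to WT4 and 634, 640, 615 and 577 CPM in KO1 to KO4. Only WT3 among the controls reached the range of the libraries labelled KO. The log2 fold change was 0.16 ± 0.13 (SE), with a 95% interval from -0.11 to 0.44 (quasi-likelihood p = 0.229, adjusted p = 0.998; two-sided exact permutation p = 0.0857). The value was positive with each library left out, between 0.10 and 0.23. Across the 8 libraries Prkar2b had r = 0.70 with the summed skeletal muscle markers, a description over libraries that differ in label, and with those markers as a covariate its log2 fold change was 0.05.

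**Figure D2:**
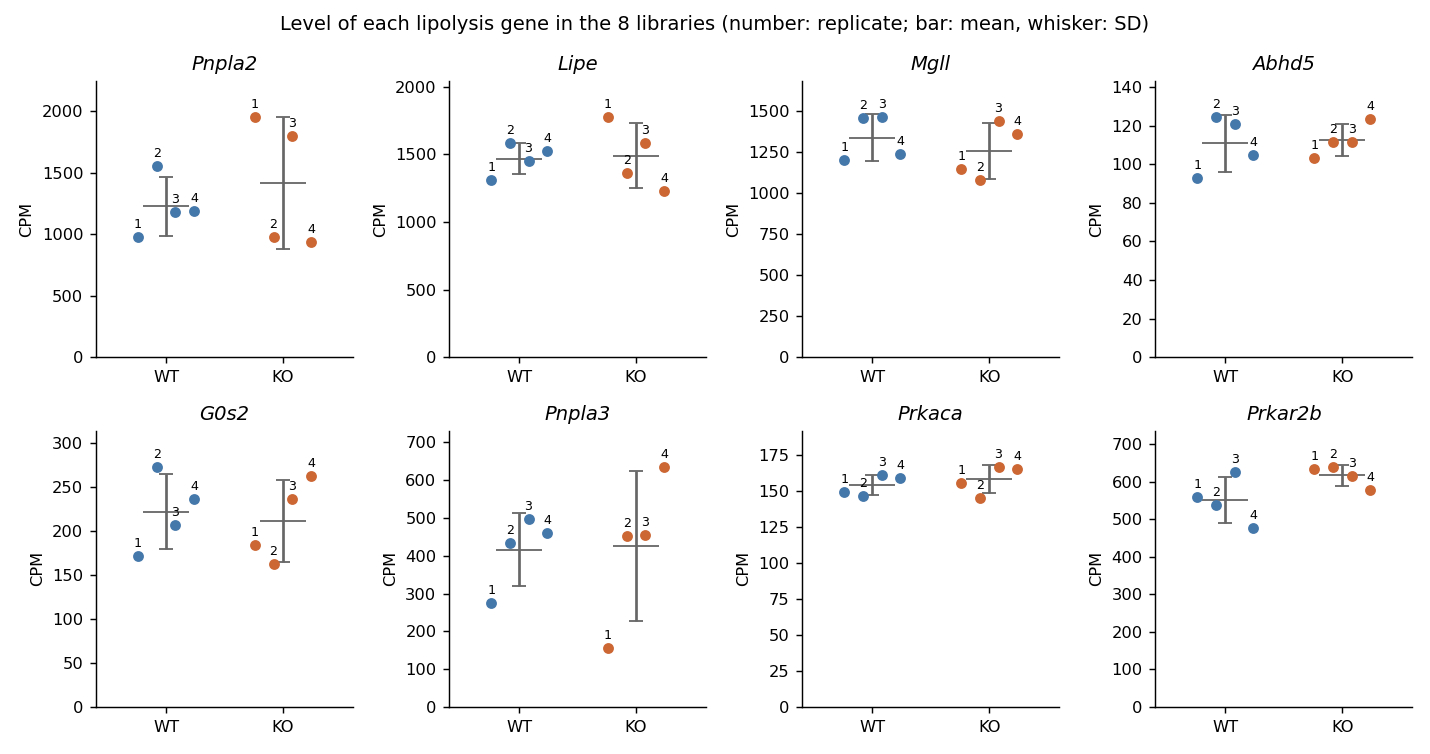
Levels of the 8 genes (y axis, CPM, from 0) in the libraries labelled WT and KO. Points are libraries with their replicate numbers, bars are means and whiskers SD. In the Pnpla2 panel KO1 and KO3 lie at 1952 and 1799 CPM, above all controls, and KO2 and KO4 at 975 and 937 CPM, below all controls.

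**Figure D3:**
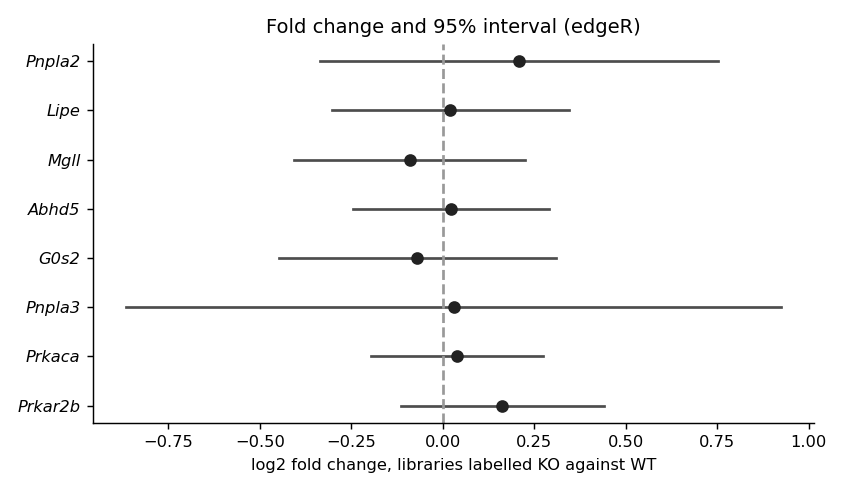
Log2 fold change of each gene (x axis, libraries labelled KO against WT, n = 4 each) with its 95% interval from edgeR. Every interval includes 0, and the widest belongs to Pnpla3, from -0.87 to 0.92.

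For every member but Prkar2b the SD among mice of a label was larger than the log2 fold change between labels, and Pnpla3 and Pnpla2 had the widest spread. The SD of log2 CPM within labels was 0.68 for Pnpla3 and 0.44 for Pnpla2, larger than in 96.3% and 85.5% of the genes tested, whose median was 0.26. G0s2 followed at 0.30. Lipe, Mgll and Abhd5 had 0.18, 0.18 and 0.16. The kinase subunits were the most even, Prkar2b at 0.12 and Prkaca at 0.08, and only 1.06% of the genes tested had a smaller SD than Prkaca. The genes tested include many of low count, which have larger sampling error. The coefficient of variation of Pnpla2 was 19.6% in controls and 37.8% in libraries labelled KO, and that of Pnpla3 was 23.5% and 46.6%. Whether these spreads differ between labels was not tested.

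**Figure D4:**
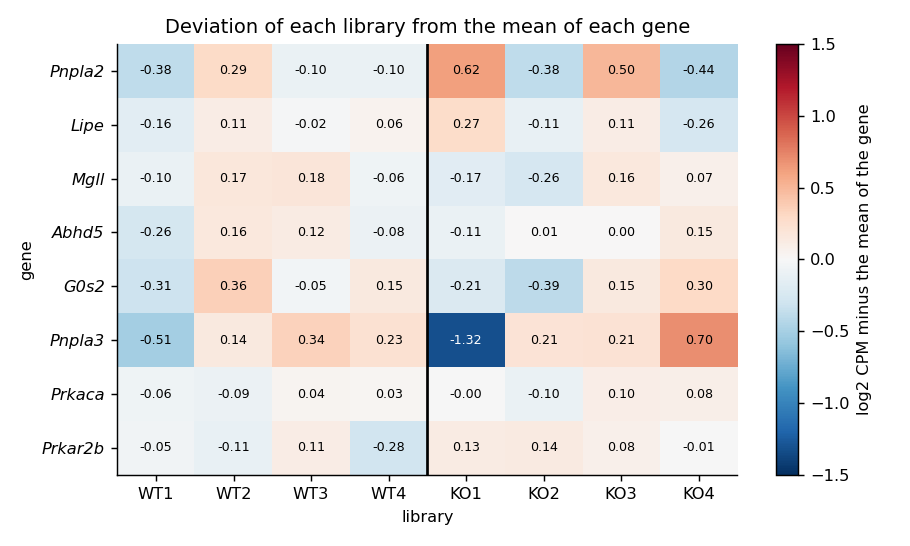
Deviation of each library (x axis) from the mean log2 CPM of each gene (y axis), in log2 units by colour and number, with a line between the labels. KO1 is at 0.62 for Pnpla2 and -1.32 for Pnpla3, and KO4 at -0.44 and 0.70, while Prkaca stays between -0.10 and 0.10 throughout.

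The transcripts of the lipases of the first 2 steps varied together between mice. Pnpla2 and Lipe had r = 0.93 (exact permutation p = 0.000347, adjusted p = 0.00972 over 28 pairs) and rho = 0.98 (exact permutation p = 0.000397, adjusted p = 0.0111) over the 8 libraries. KO1, KO3 and WT2 were high for both genes, and KO4, WT1 and KO2 low. Without KO1 and KO3, the libraries farthest from the median of Pnpla2, r was 0.91, and r of the deviations from the label means was 0.94. This was the only one of 28 pairs past an adjusted p of 0.05. The adjusted p passed no longer without WT3 (r = 0.93) or without KO1 (r = 0.89), where 7 libraries remained, and without KO4 it was 0.05, at the threshold. The summed adipocyte markers moved with both genes (r = 0.82 for Pnpla2 and 0.73 for Lipe). They were 26044 CPM in KO1, 25048 in WT2 and 23772 in KO3, and 21466 and 21093 CPM in KO4 and KO2, though WT1 had 23370 CPM with low Pnpla2. Markers within the sum differed: Adipoq was highest in KO1, WT2 and KO3, while Lep was lowest there, at 964, 1542 and 1175 CPM. The summed brown adipocyte markers also moved with both genes (r = 0.79 for Pnpla2 and 0.63 for Lipe), and with Mgll (r = 0.72). In that sum Pdk4 alone gave 48.4 of 141 CPM in KO2 and 216 of 393 CPM in KO3. The part of these markers was not tested. With the part that followed the summed adipocyte markers removed, Pnpla2 and Lipe had r = 0.85 (exact permutation p = 0.00687, adjusted p = 0.132).

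Over the 8 libraries Mgll showed little of this pattern (with Pnpla2 and Lipe, r = 0.24 and 0.04, exact permutation p = 0.564 and 0.929, adjusted p = 0.999 for both; rho = 0.14 and 0.10). These low values rest on a few libraries labelled KO. Without KO1 and KO3, r with Pnpla2 was 0.60, and without KO1 and KO4, r with Lipe was 0.70. In controls alone r was 0.73 and 0.55, and in libraries labelled KO 0.16 and -0.15. The highest r of Mgll over the 8 libraries was with G0s2, at 0.77 (exact permutation p = 0.0366, adjusted p = 0.513; rho = 0.71, exact permutation p = 0.0576). Without WT3 and KO2 that r was 0.83. The pair was low in KO2, KO1 and WT1. The summed endothelial markers moved with both (r = 0.83 for Mgll and 0.78 for G0s2), and their part in the result was not tested. Abhd5 had r of 0.66, 0.65 and 0.64 with Pnpla3, G0s2 and Mgll (exact permutation p = 0.0716, 0.0852 and 0.0927, each with an adjusted p of 0.519).

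Pnpla2 and Pnpla3 stood at opposite ends in KO1 and KO4. Their r was -0.50 (exact permutation p = 0.21, adjusted p = 0.544; rho = -0.50, exact permutation p = 0.216), and without KO1 and KO3 it was 0.00. KO3 lay above the mean of both genes, by 0.50 and 0.21 in log2 CPM, unlike KO1. In controls alone r was 0.61, and in libraries labelled KO it was -0.73. Ratios of CPM between functional partners were compared across libraries, not as levels of the genes. None passed by label in an exact two-sided permutation test, with p from 0.343 to 0.8286 and adjusted p = 0.8286 for each of 5 ratios. The log2 ratio of G0s2, the inhibitor, to Pnpla2 was -2.46 ± 0.09 in controls and -2.68 ± 0.66 in libraries labelled KO (SD, n = 4 each). In linear terms it ran from 0.0941 in KO1 to 0.281 in KO4. The log2 ratio of Abhd5 to Pnpla2 was -3.45 ± 0.15 and -3.57 ± 0.65, and that of Pnpla3 to Pnpla2 -1.57 ± 0.31 and -1.82 ± 1.34. In linear terms the ratio of Pnpla3 to Pnpla2 was lowest in KO1 at 0.0805 and highest in KO4 at 0.679. Regulatory to catalytic kinase subunit, Prkar2b to Prkaca, was 1.83 ± 0.17 and 1.96 ± 0.15.

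**Figure D5:**
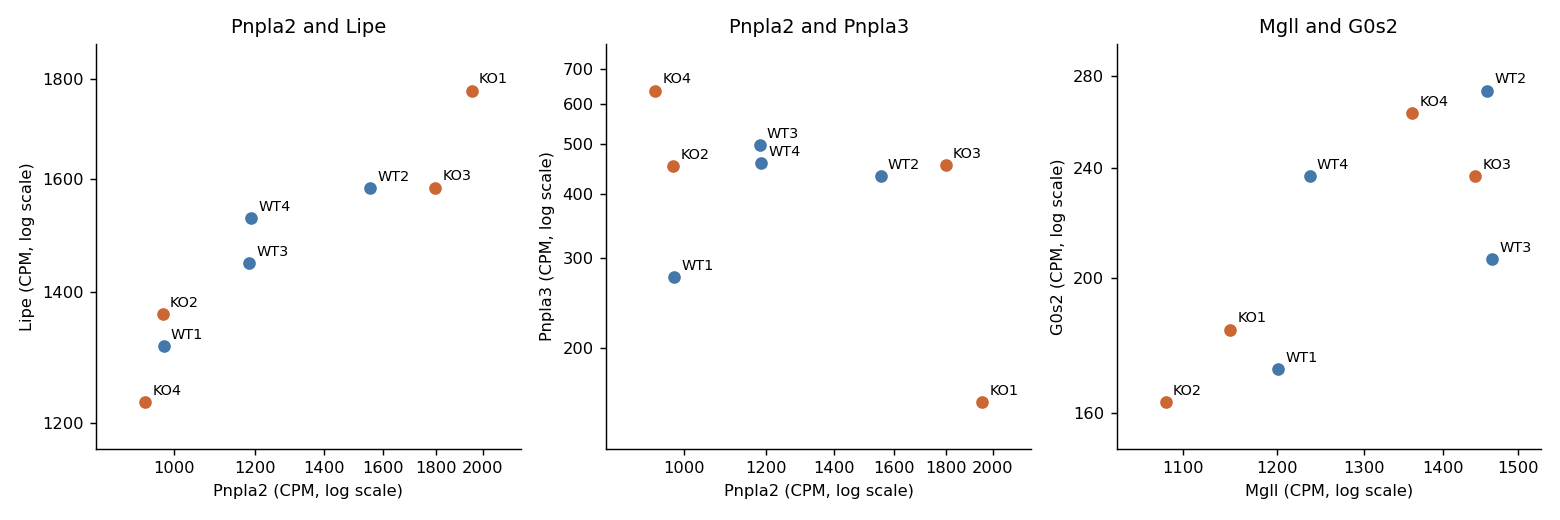
Levels of 3 pairs of genes in the 8 libraries (both axes CPM, log scale; blue WT, orange KO). Pnpla2 and Lipe order the libraries almost alike (rho = 0.98), Pnpla2 and Pnpla3 part at KO1 and KO4, and Mgll and G0s2 are low in KO1, KO2 and WT1.

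Among all genes tested, those most like each member were taken by Pearson's r of log2 CPM over the 8 libraries, a description in which the best of 14555 genes is always high. Nearest to Pnpla2 was Oplah, which encodes 5-oxoprolinase (r = 0.98), and nearest to Lipe was Rps15 (r = 0.98), a ribosomal protein gene. 4732471J01Rik, which shares exon bases with Lipe, came second (r = 0.98). Mgll was nearest to Sh3pxd2a (r = 0.99), Abhd5 to Bscl2 (r = 0.95), the gene of the droplet protein seipin, and G0s2 to St3gal2 (r = 0.97). Pnpla3 was nearest to Rmnd1 (r = 0.97), Prkaca to 1500002O20Rik (r = 0.97) and Prkar2b to Gm17302 (r = 0.97). Chosen after its values were seen was Ptger3, the antilipolytic prostaglandin E receptor EP3, which had the lowest r of all genes with Pnpla2 (r = -0.98, rho = -1). Ptger3 had 309, 144, 287 and 229 CPM in WT1 to WT4 and 115, 336, 123 and 374 CPM in KO1 to KO4. It was thus lowest in KO1, KO3 and WT2 and highest in KO4 and KO2, the reverse of Pnpla2.

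The rest of the pathway was read from 7 lists of genes. Of 85 tested genes other than the 8, 48 had values above and 37 below 0, and the median log2 fold change was 0.03. None passed the quasi-likelihood test, the smallest adjusted p being 0.998. Those with an unadjusted p under 0.05 numbered 5, or 5.88%, 3 higher and 2 lower, against 4.48% of all genes tested. The groups overlapped for all 85.

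In the signal to the lipases, 13 of 19 tested genes of receptors, G proteins, adenylyl cyclases and phosphodiesterases were positive, with a median of 0.08. The other kinase subunits, inhibitor peptides and anchors had 6 of 12 positive and a median of 0.00. Prkar1b, a regulatory subunit best known from brain, had 1.01 ± 0.64 (log2, SE), of which KO1 alone gave 32.5 CPM against 4.25 to 8.33 CPM in the other 7 libraries, and without KO1 it was 0.01. It passed an adjusted p of 0.05 only in the exact test with 1 common dispersion.

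At the droplet, 4 of 11 tested partners were positive, with a median of -0.04. Hilpda, a hypoxia-induced inhibitor of adipose triglyceride lipase, had -0.90 ± 0.33 (unadjusted p = 0.0193, adjusted p = 0.998 in the quasi-likelihood test). Its levels were 28.1, 16.6, 19.9 and 17.4 CPM in WT1 to WT4 and 5.11, 7.5, 12.7 and 18.4 CPM in KO1 to KO4, so only KO4 overlapped the controls. Like Prkar1b, it passed with 1 common dispersion alone. Among other lipid hydrolases 6 of 12 were positive (median -0.03), and Daglb, a diacylglycerol lipase, had -0.32 ± 0.15 (unadjusted p = 0.046). In the patatin family, 2 of the 3 other tested genes were positive with a median of 0.02, and Pnpla6 had 0.05 ± 0.14.

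Of the genes that export or reuse the products, 7 of 12 were positive with a median of 0.07. Slc27a1, a fatty acid transporter, had 0.40 ± 0.23 and Acsl5, an acyl-CoA synthetase, -0.21 ± 0.14, which was -0.085 without WT2. Of the transcriptional regulators of lipase genes, 10 of 16 were positive with a median of 0.08. Irf4, a factor known to promote lipase genes on fasting, had 0.79 ± 0.25 (unadjusted p = 0.00749, adjusted p = 0.998) on 24 to 83 reads. Its highest levels, 20.5 and 28.3 CPM, were in KO1 and KO2, whose muscle marker sums were high, while KO4, with the highest muscle sum, had 15.6 CPM. KO3 at 12.0 CPM lay inside the control range of 9.48 to 12.4 CPM. With muscle markers as a covariate the value for Irf4 was 0.23 (unadjusted p = 0.566). Mlxipl, the carbohydrate-responsive factor ChREBP, had 0.38 ± 0.17 (unadjusted p = 0.0482). With single libraries left out, the value for Mlxipl ran from 0.27 (without WT2) to 0.58 (without WT4). It was 0.30 with limma-voom and 0.71 with muscle markers as a covariate.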

How the data were processed

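Poly(A) RNA of subcutaneous fat was sequenced with a kit, named in the labels' protocols, that is known not to mark strand. FastQC, Bowtie2, edgeR and mm9 appear in the submitters' processing notes, without roles or versions. The authors deposited unnormalized whole-number read counts for each Ensembl gene in 8 libraries, and a table of 1 comparison with log2 fold changes, log2 mean CPM and p-values. Columns were matched to samples by mouse label, and groups were taken from the titles.

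Labels were compared with edgeR 4.0.16 in R 4.3.3 by its quasi-likelihood test. Scaling was TMM, filterByExpr kept 14556 of 18022 genes, the fit was robust with the label as the only term, and p-values were Benjamini-Hochberg adjusted over all genes tested, with a threshold of 0.05. SEs were obtained by dividing each log2 fold change by the square root of its F value. CPM values are TMM-scaled, and log2 CPM used a pseudocount of 0.5. Single values and correlations were compared by exact permutation, with Benjamini-Hochberg adjustment over 5 ratios and 28 pairs. Functions were tested on simulated data. Exon lengths and overlaps came from GENCODE M21, promoter windows from RefSeq (GRCm38.p6). Apart from these windows no coordinates are given, since the notes name another build.

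Named were the 8 genes, in each pathway list the genes with an unadjusted p under 0.05 or else the 2 with the smallest p, and the genes most alike in r, of which the first is printed. One gene that this rule names is not reported here. The members and lists were chosen with earlier results of these data known. Alternatives were other scalings, filters and tools (DESeq2 1.42.0, limma 3.58.1), a replicate block, marker covariates and libraries left out. No library was a copy of another of its label (smallest chi-square per gene within a label 4.45). Pairs across labels were not checked.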

Additional observations from a re-analysis of the deposited data

Results flagged for a closer look

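Among 26 sets of 4 libraries (8 genes and 5 ratios under 2 labels), 1 library stood far from the others of its label, where chance flags about 1 in 20 sets. The log2 ratio of G0s2 to Pnpla2 was -2.32 in WT4 and between -2.52 and -2.50 in WT1, WT2 and WT3, a gap of 0.926 of the range. The 4 values span a small range beside the -2.68 ± 0.66 (SD, n = 4) of the libraries labelled KO.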

How the results depend on the processing

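No setting called any of the 8 genes, and their lowest adjusted p in any of 24 alternatives was 0.898 (Prkar2b). Prkaca and Prkar2b kept the sign of their log2 fold change in all of them. Over all genes, DESeq2 called 36, the likelihood ratio test 58 and the exact test with 1 common dispersion 224, against 0. Leaving out single libraries gave between 0 and 50 calls, the latter without KO3. The cause was not tested.

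With liver markers as a covariate, Pnpla2, Lipe, Abhd5, Pnpla3, Pnpla6 and Slc27a1 turned to -0.080, -0.067, -0.085, -0.012, -0.045 and -0.0034. With WT1 and WT4 left out, Lipe, Abhd5, Pnpla3 and Pnpla6 turned to -0.026, -0.12, -0.13 and -0.064. With KO1, KO2 and KO4 left out, which leaves KO3 alone and assumes that it varies like the controls, Mgll and G0s2 turned to 0.10 and 0.093. With muscle markers as a covariate, Abhd5, G0s2 and Acsl5 turned to -0.012, 0.14 and 0.023. With limma-voom, Lipe and Pnpla3 turned to -0.019 and -0.049, and with adipocyte markers as a covariate, chosen after seeing the data, Pnpla3 turned to -0.071. With single libraries left out, Lipe ran from -0.075 to 0.10, Abhd5 from -0.054 to 0.082, G0s2 from -0.19 to 0.044, Pnpla3 from -0.23 to 0.30 and Pnpla6 from -0.039 to 0.13. The log2 ratios ran from -0.51 to 0.019 (G0s2 to Pnpla2), -0.33 to 0.10 (Abhd5 to Pnpla2), -0.67 to 0.36 (Pnpla3 to Pnpla2) and -0.23 to 0.025 (Mgll to Lipe), the upper values without KO1. The lower values came without KO4, where G0s2 to Pnpla2 had a two-sided exact permutation p of 0.0286 (adjusted p = 0.143).

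Pairs of genes past the threshold numbered 0 or 1 with single libraries left out, and 0 after removing the part that followed adipocyte markers. With the longest transcript as length, also chosen after seeing the data, Lipe, Mgll, Abhd5 and Prkaca stood at 398, 326, 35.4 and 68.6 CPM per kb.

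The replicate numbers did not pair the mice: deviations of same-numbered libraries had correlations between -0.29 and -0.14, and 0 of 8 libraries correlated best with their own number. With the replicate block Pnpla3 turned to -0.10, and 0 genes were called.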

Other observations

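Further genes of fat lipid metabolism were looked at after their values were seen, as descriptions over the same 8 libraries. Ces1d, a carboxylesterase that also hydrolyses triglyceride in fat, had r = 0.92 with Pnpla2. It stood at 362, 625, 356 and 462 CPM in WT1 to WT4 and at 629, 338, 637 and 247 CPM in KO1 to KO4, highest in KO3, KO1 and WT2 as Pnpla2 was. Ces1f, a relative, had r = 0.93 with Pnpla2, and Adrb3, the main beta-adrenergic receptor of mouse fat, 0.70.

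Fasn, the fatty acid synthase, went the other way. It was at 2509, 2708, 5323 and 3974 CPM in WT1 to WT4 and at 1456, 4365, 1926 and 6445 CPM in KO1 to KO4. Its r was 0.80 with Pnpla3 and -0.79 with Pnpla2. The log2 fold change of Fasn between labels was -0.03 ± 0.50 (SE, adjusted p = 0.998 in edgeR's quasi-likelihood test).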
